A study of Mus musculus with 6 samples.

Results

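Expression of 36 genes of lipid storage, cholesterol efflux and fatty acid oxidation was examined in brain-resident macrophages, the microglia, with and without the autophagy gene Atg7. The genes were chosen by name, 1 identifier each, from a count table of 55487 genes, and all 36 were found there. Live cortical cells that were CD11b-positive and of intermediate CD45 were sorted as microglia from 6 female mice at 20 months of age, and 1 RNA library was sequenced from each. The 3 controls were littermates of genotype Atg7-fl/fl, whose Atg7 alleles are flanked by loxP sites, without Cre. The 3 knockouts were Atg7-fl/fl;Cx3cr1-CreERT2, in which a tamoxifen-dependent Cre is made by Cx3cr1-expressing cells, microglia and other macrophages among them. Both groups thus carried the floxed alleles, while the Cre allele and the loss of Atg7 came together and cannot be told apart. Tamoxifen treatment and its timing are not given in the labels.

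Autophagy delivers cytoplasm, including lipid droplets, to the lysosome, and Atg7 encodes the enzyme that activates the ubiquitin-like proteins of autophagosome formation. Cholesterol and fatty acids enter microglia in lipoproteins, myelin and cell debris, are freed in the lysosome, and are then exported to ApoE particles, stored as esters in droplets, or carried into mitochondria as acylcarnitines and burned by beta-oxidation. Liver X receptors (LXRs) sense oxysterols and switch on the export genes, and peroxisome proliferator-activated receptors (PPARs) sense fatty acids.

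Libraries were of very unequal depth. The counts of control 3 summed to 1254380 and those of knockout 2 to 3789208, while the other 4 libraries had 21282335 to 39389527. In control 3 a gene at 3 reads stood at 2.36 CPM (counts relative to the library total, scaled by the trimmed mean of M-values), against 0.0789 in control 1, and 31 of the 36 lipid genes had any read there. Such floors cover counting error only, since the labels mention no molecular identifiers. Atg7 itself was 65.7, 66.4 and 56.6 CPM for controls 1 to 3, against 25.0, 26.5 and 23.7 CPM for knockouts 1 to 3 (log2 fold change -1.33, SE 0.19, edgeR quasi-likelihood test with Benjamini-Hochberg adjustment, adjusted p = 0.0147). With single libraries left out the log2 fold change of Atg7 stayed between -1.41 and -1.29, while the edgeR adjusted p ran from 0.00295 without control 3 to 0.135 without knockout 1, and the call held only without control 3. Microglial markers were abundant in every library, with P2ry12 between 10840 and 12950 CPM. The summed CPM of 10 such markers was 66810, 63230 and 61370 in the controls and 54330, 48920 and 51950 in the knockouts, a sum that includes Cx3cr1, the locus of the Cre allele.

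None of the lipid genes was called by edgeR. Of the 36 genes, 35 had enough reads to be tested (Pparg did not), and 0 of 35 had an edgeR adjusted p below 0.05, against 7 of all 15787 genes tested (0.0443%), of which 5 were higher (0.0317%) and 2 lower (0.0127%). At an unadjusted edgeR p below 0.05 stood 2 of 35 genes (5.71%), Lipa in the higher direction and Acsl1 in the lower, against 4.32% of all genes. DESeq2 called 1 lipid gene, Lipa (0.526% of all genes were called by that test), and limma voom called 0 (0.095% of all genes).

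The directions of the lipid genes were split much as those of all genes. The log2 fold change (knockout over control) was above 0 for 18 lipid genes (51.4%, against 52.5% of all genes) and below 0 for 17, with a median of 0.05 against 0.02 over all genes. In 4 genes, Lipa, Abca1, Plin2 and Fabp5, every knockout library lay above every control library, and in 0 genes below. Together these were 11.4% of the lipid genes, and the same share of all genes was 11.1% (6.59% higher and 4.47% lower). The 95% interval of the fold change lay wholly between -1 and 1 on the log2 scale for 23 of 35 lipid genes, and for 43.2% of all genes. The remaining 12 lipid genes had intervals that reach beyond -1 or 1.

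**Figure D1:**
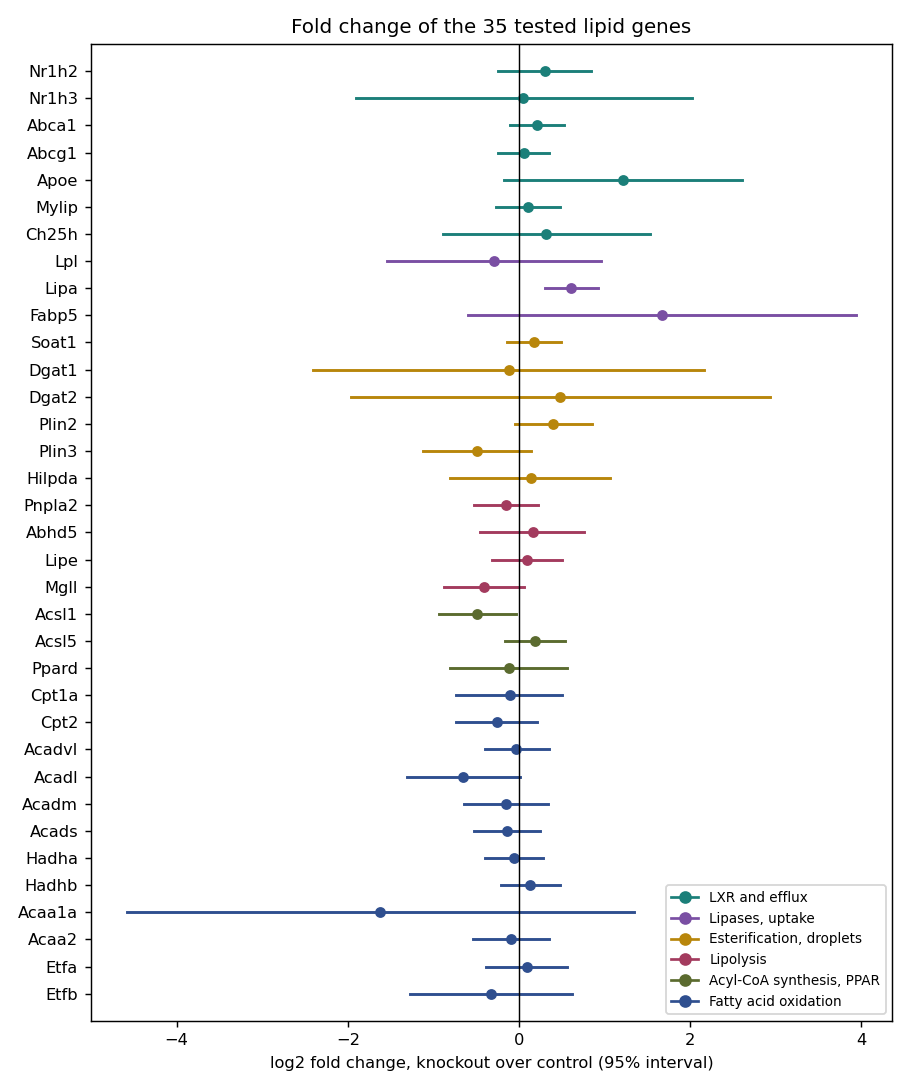
Log2 fold change of knockout over control (horizontal axis) for the 35 tested lipid genes, coloured by role; points are edgeR estimates and bars their 95% intervals. The intervals of Lipa (0.30 to 0.92) and Acsl1 (-0.94 to -0.03) leave out 0, before any adjustment, and the widest, of Acaa1a, Dgat1, Dgat2 and Fabp5, belong to genes with few or no reads in control 3.

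Set per kilobase of exon, the levels of the 36 genes ran over several orders of magnitude. Apoe had the highest mean level over the 6 libraries, 410 CPM per kb, with single libraries between 152 and 793. Abcg1 followed with 240 CPM per kb and a much narrower range of 212 to 280, and it was the only gene of the 36 whose 6 libraries all lay above all 6 of the gene ranked next. Lipa (64.5 CPM per kb), Mylip (47.7), Pnpla2 (38.0), Acads (33.3) and Soat1 (30.9) came after it, and among these neighbours the ranges of the libraries overlapped. At the low end were Fabp5 (1.06 CPM per kb), the LXR-alpha gene Nr1h3 (0.483), Dgat2 (0.136) and Pparg (0.0664). The LXR-beta gene Nr1h2 stood at 17.4 CPM per kb.

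**Figure D2:**
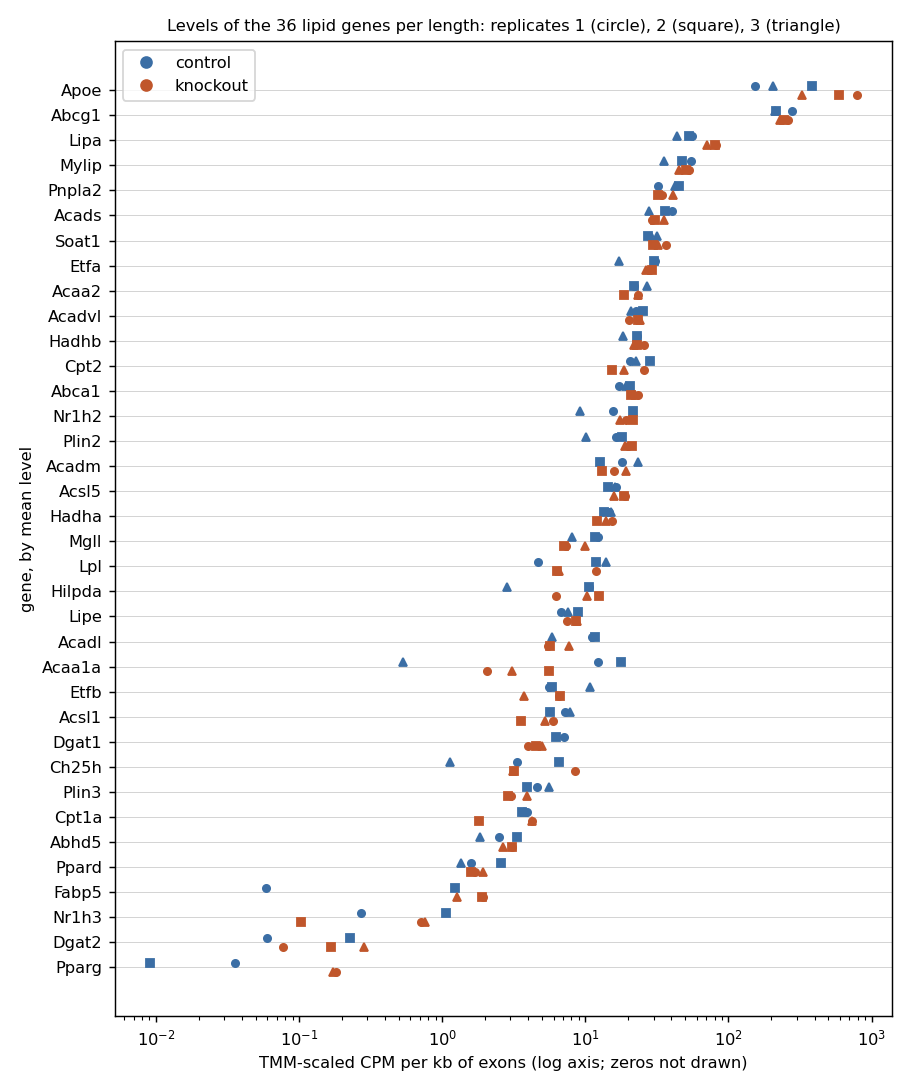
Level of each of the 36 lipid genes in each library, as TMM-scaled CPM per kilobase of exon on a log axis, ordered by mean level; libraries at 0 are not drawn. Apoe and Abcg1 lie above all other genes, and below them the libraries of neighbouring genes overlap.

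The export arm was the one in which every fold change was above 0, though none was called by edgeR. All 7 LXR and efflux genes had a log2 fold change above 0, from 0.05 to 1.22, with a median of 0.21, and 0 of 7 reached an unadjusted edgeR p below 0.05. Only 4 of 7 were above 0 without control 3, without knockout 1, or without both shallow libraries, and the median was then 0.02, 0.03 and 0.13. Without control 2 the median was 0.62. Their summed CPM was 2779, 2827 and 2329 in the controls and 4102, 3503 and 2802 in the knockouts. Knockout 3 lay below control 2, so the groups overlapped in this sum, which Abcg1 and Apoe make up for the most part.

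Apoe (ENSMUSG00000002985), which encodes the main apolipoprotein of brain lipid transport, had the largest difference in mean CPM among the 36 genes. It stood at 326, 815 and 438 CPM for controls 1 to 3, against 1695, 1277 and 701 CPM for knockouts 1 to 3. Knockouts 1 and 2 lay well above every control, while knockout 3 lay below control 2. The means were 526 ± 256 CPM (SD, n = 3) and 1225 ± 499 CPM (SD, n = 3), and the log2 fold change was 1.22 (SE 0.52, 95% interval -0.18 to 2.61). The edgeR quasi-likelihood test gave an unadjusted p of 0.0736 and an adjusted p of 0.999. Leaving out 1 library at a time moved the log2 fold change between 0.89 and 1.69.

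Other macrophages and blood cells commonly stain higher for CD45 than microglia and would then fall outside the sorting gate. Sums of border macrophage, monocyte and neutrophil markers ran in the order of Apoe within the knockouts. The endothelial sum did so too. Some single markers did not, nor did the sums of astrocyte, oligodendrocyte, neuron and lymphocyte markers. Border macrophages of the meninges and vessels also make Apoe, and the sum of 9 of their 10 markers was 15.3, 40.4 and 89.6 CPM for controls 1 to 3, against 260.5, 167 and 65.0 CPM for knockouts 1 to 3. The remaining marker, Stab1, stood at 401 to 548 CPM in all libraries and was set apart after its values were seen. It was 412, 455 and 548 CPM for knockouts 1 to 3. Over the whole list of 10 the sums were 416, 564 and 508 CPM across the controls, and 672, 622 and 613 CPM across the knockouts. All 10 markers had a log2 fold change above 0 (median 2.34), against 52.5% of all genes. EdgeR called 0 of 10 (0.0443% of all genes), and DESeq2 called 3, namely Pf4, Clec10a and Ms4a7 (0.526% of all genes). Lyve1 and Cd209f were at 0 in control 1, and Pf4 and Clec10a in control 3.

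Within the knockouts, Apoe and the sums of these markers ranked the libraries alike, from knockout 1 down to knockout 3. Not every single marker did so. Stab1 ran in the reverse order, Cbr2 was highest in knockout 2 (13.8 CPM) and Cd209f was lowest there (1.56 CPM). Within the controls, Apoe and the sum of all 10 markers were highest in control 2, and the sum of the 9 in control 3. Stab1, itself highest among the controls in control 2 (524 CPM), makes up most of the sum of all 10 in every library. Sums of 8 monocyte markers were 10.0, 39.2 and 47.9 CPM across the controls, and 148.5, 68.8 and 21.9 CPM across the knockouts. Chil3 is the largest part in all but control 1, with 107, 50.9 and 9.30 CPM for knockouts 1 to 3. Among the knockouts Fn1 was highest in knockout 2 (3.38 CPM), and Vcan, at most 0.372 CPM there, in knockout 3. Sums of 8 neutrophil markers were 579, 775.5 and 886 CPM across the controls, and 2164, 945 and 606 CPM across the knockouts. Csf3r stood at 384 to 537 CPM in single libraries. Its log2 fold change was -0.22, while those of the other 7 were above 0. Without Csf3r, set apart after its values were seen, the sums were 42.7, 317.5 and 377 CPM across the controls. They were 1734, 561 and 129 CPM across the knockouts. Retnlg and Mmp8 were at 0 in knockout 2. Lymphocyte markers summed to at most 2.08 CPM, reached in knockout 2, with Ms4a1 at 0 in all libraries. Neuron markers summed to at most 5.50 CPM in any library. Astrocyte markers summed to 326, 346 and 305 CPM across the controls, and 359, 283 and 387.5 CPM across the knockouts. Slc1a3, at 250 to 325.5 CPM in single libraries, makes up most of these. Oligodendrocyte markers summed to 218, 256 and 214.5 CPM across the controls, and 211, 236 and 233 CPM across the knockouts. For endothelial markers the sums were 157, 141 and 198 CPM, and 175, 163 and 151 CPM. The part that these cells have in the Apoe values was not tested, and in bulk RNA fewer cells of a type and less RNA per cell cannot be told apart.

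**Figure D3:**
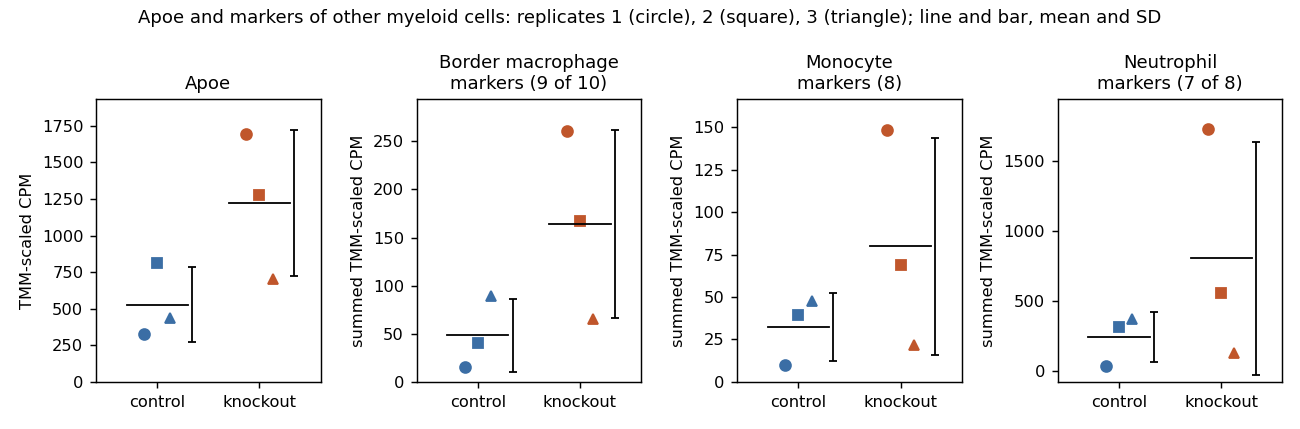
CPM of Apoe and summed CPM of border macrophage, monocyte and neutrophil markers by library. Circle, square and triangle are replicates 1, 2 and 3, and lines are means and bars SDs of 3 libraries. Stab1 and Csf3r, which are high in all libraries, were left out of their sums after their values were seen. In the knockouts all 4 panels run in the order 1, 2, 3 from high to low; among the controls, replicate 2 is highest for Apoe and replicate 3 for the marker sums.

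Abca1, the transporter that loads cholesterol onto ApoE particles, stood at 179, 214 and 198 CPM across the controls, and 240.5, 215 and 229 CPM across the knockouts. The groups did not overlap, but control 2 and knockout 2 nearly met. The means were 197 ± 17.7 and 228 ± 12.6 CPM (SD, n = 3 each) and the log2 fold change was 0.21 (SE 0.15, 95% interval -0.10 to 0.53, edgeR adjusted p = 0.999). Abcg1, the partner transporter, was nearly level, at 1716 ± 281 CPM in controls and 1783 ± 128 CPM in knockouts (SD, n = 3 each), with a log2 fold change of 0.06 (SE 0.14, 95% interval -0.24 to 0.35).

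The other LXR genes lay within their spread. Nr1h2 was 51.8 ± 20.95 CPM in controls and 65.2 ± 6.95 CPM in knockouts (SD, n = 3 each), a log2 fold change of 0.30 (SE 0.25). Mylip, an LXR target whose product marks the LDL receptor for degradation, had a log2 change of 0.11 (SE 0.18). Ch25h, whose enzyme makes an oxysterol from cholesterol, stood between 1.57 and 11.8 CPM in single libraries and had a log2 change of 0.32 (SE 0.57). Nr1h3 was at most 2.66 CPM in any library and at 0 reads in control 3, with a log2 change of 0.05 (SE 0.92, 95% interval -1.91 to 2.02).

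Lipa had the smallest p of the 36 genes. Lipa (ENSMUSG00000024781) encodes lysosomal acid lipase, which frees cholesterol and fatty acids from esters inside the lysosome. Its level was 379, 359.9 and 298 CPM for controls 1 to 3, against 557, 544 and 484 CPM for knockouts 1 to 3. Every knockout lay above every control, with a gap wider than the range within either group. The means were 346 ± 42.5 and 528 ± 39.2 CPM (SD, n = 3 each) and the log2 fold change was 0.61 (SE 0.15, 95% interval 0.30 to 0.92).

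The call for Lipa depended on the test. By the edgeR quasi-likelihood test its unadjusted p was 0.000816 and its adjusted p 0.261, so that it did not pass. DESeq2 gave a log2 fold change of 0.60 with an adjusted p of 0.00638, and limma voom 0.55 with an adjusted p of 0.133. Over the libraries left out in turn, the log2 fold change stayed between 0.50 and 0.69, and without both shallow libraries it was 0.49 (edgeR adjusted p = 0.306). In the knockouts Lipa ran in the order of the border macrophage marker sum without Stab1 (1, 2, 3 from high to low). In the controls it ran in the reverse order of that sum. The part of other cells in its level was not tested.

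The Lipa promoter is shown because this gene carries the clearest difference. The window is chr19:34527425-34527724 of GRCm38.p6 on the minus strand, from RefSeq, 250 bases before to 50 bases after the annotated start. Capitals mark the bases from the start site on.
Lipa: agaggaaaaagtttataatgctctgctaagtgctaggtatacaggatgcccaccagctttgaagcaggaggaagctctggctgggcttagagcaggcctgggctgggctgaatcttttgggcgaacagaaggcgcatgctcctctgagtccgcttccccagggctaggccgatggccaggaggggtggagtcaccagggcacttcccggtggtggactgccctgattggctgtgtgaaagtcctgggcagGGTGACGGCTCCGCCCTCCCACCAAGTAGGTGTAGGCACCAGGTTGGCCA

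The other lipid uptake genes showed more scatter. Lpl, the lipase that acts on lipoprotein triglycerides at the cell surface, was 49.3, 124 and 146 CPM across the controls, and 124, 66.0 and 69.2 CPM across the knockouts. Control 1 was the lowest of all 6 libraries and knockout 1 stood with control 2, so the groups overlapped. The means were 106.5 ± 50.8 and 86.3 ± 32.4 CPM (SD, n = 3 each) with a log2 fold change of -0.29 (SE 0.49, 95% interval -1.54 to 0.96). This sign turned without both shallow libraries (0.15).

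Fabp5, a fatty acid carrier of the cytoplasm, was at 0.210, 4.41 and 0 CPM across the controls, and 6.84, 6.75 and 4.51 CPM across the knockouts; its libraries are given because they do not overlap, a choice made after its values were seen. Knockout 3 and control 2 nearly met, and the 0 of control 3 lay under a 3-read floor of 2.36 CPM. The log2 fold change was 1.67 (SE 1.0, 95% interval -0.60 to 3.94, unadjusted p = 0.131 by edgeR). Leaving out single libraries moved it between 1.11 and 4.95, the highest without control 2. Fabp5 has processed copies in the mouse genome, so the assignment of its few reads is uncertain. Summed over Lpl, Lipa and Fabp5, the CPM was 429, 489 and 444 in the controls and 688, 617 and 557 in the knockouts; Lipa makes up most of each sum.

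**Figure D4:**
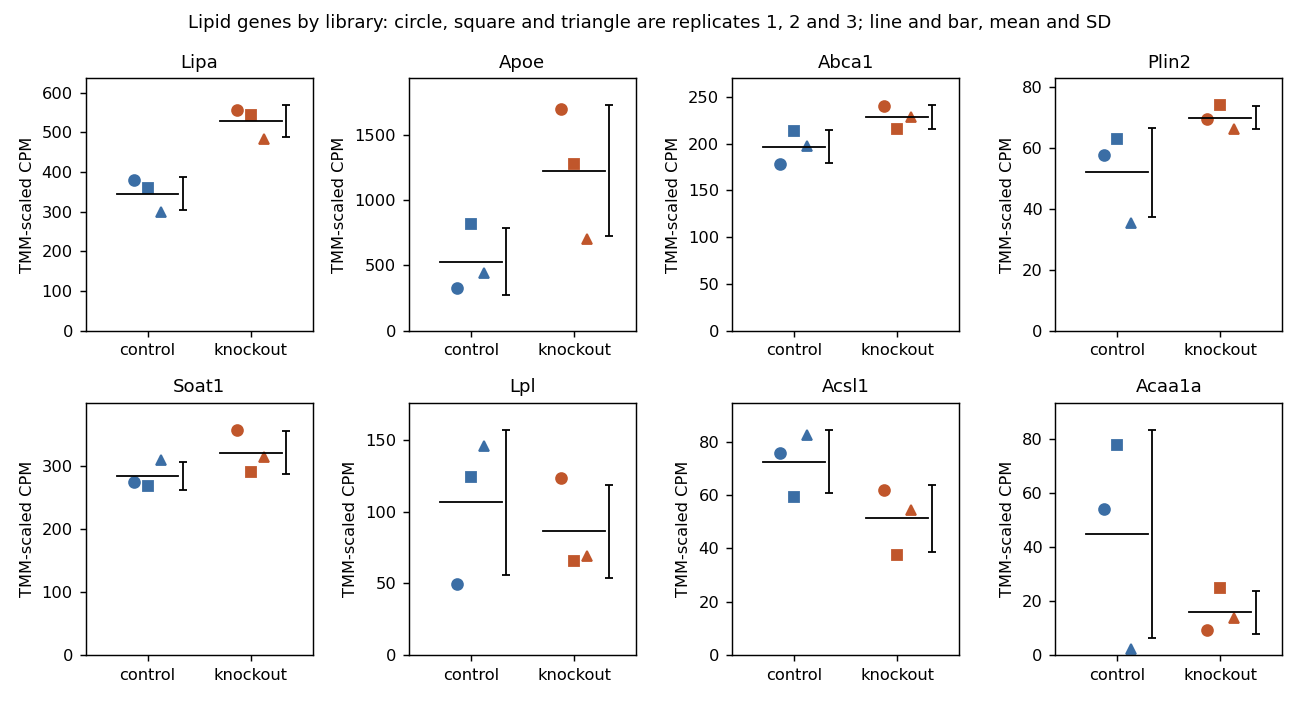
TMM-scaled CPM of 8 lipid genes in each library (circle, square and triangle are replicates 1, 2 and 3; lines are means and bars SDs of 3 libraries). Knockouts lie above all controls for Lipa, Abca1 and Plin2; the groups overlap for Apoe, Soat1, Lpl, Acsl1 and Acaa1a, and control 3 of Acaa1a sits at 2.36 CPM, far under the other controls.

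Of the 6 genes that build or coat lipid droplets, 4 had a log2 fold change above 0 and 2 below, with a median of 0.16 and 0 called. The split was 3 and 3 by limma voom, without both shallow libraries, and without control 3, knockout 2 or knockout 3, with medians of -0.06, -0.07, 0.01, 0.07 and -0.02. Without control 1 or control 2, 5 were above 0 and the medians were 0.24 and 0.26. Their summed CPM was 383, 376 and 369 in the controls and 457, 403 and 423 in the knockouts, which did not overlap; Soat1 is the largest part. Soat1, which turns cholesterol into its storage ester, was 274, 267 and 309.6 CPM across the controls, and 357, 289.9 and 314 CPM across the knockouts. Control 3 lay above knockout 2, so this gene overlapped between the groups. Its means were 284 ± 22.7 and 320 ± 33.9 CPM (SD, n = 3 each), with a log2 fold change of 0.18 (SE 0.15, 95% interval -0.14 to 0.49).

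Plin2, the coat protein by which droplets of non-fat cells are commonly recognised, was 57.8, 63.0 and 35.4 CPM across the controls, and 69.5, 74.0 and 66.4 CPM across the knockouts. All knockouts lay above all controls, and the lowest control was the shallow control 3. The means were 52.1 ± 14.7 and 70.0 ± 3.82 CPM (SD, n = 3 each) and the log2 fold change was 0.40 (SE 0.21, 95% interval -0.04 to 0.85). The edgeR unadjusted p was 0.0725 and the adjusted p 0.999, and the log2 fold change ranged from 0.20 to 0.56 with single libraries left out and was 0.16 without both shallow libraries. Plin3, another droplet coat protein, had the opposite sign, at 17.8 ± 3.27 CPM in controls and 12.4 ± 2.15 CPM in knockouts (SD, n = 3 each), a log2 fold change of -0.49 (SE 0.29, 95% interval -1.12 to 0.14).

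The remaining droplet genes were low or shallow. Hilpda, which binds and restrains the triglyceride lipase ATGL, stood between 3.14 and 13.8 CPM (log2 fold change 0.14, SE 0.44). Dgat1, which makes triglyceride, was 21.7 and 19.1 CPM in controls 1 and 2, at 0 in control 3, and 12.2, 13.8 and 15.3 CPM across the knockouts. Its log2 fold change was -0.12 (SE 0.90) with control 3 and -0.58 without it. Dgat2, the other triglyceride synthase, was at most 0.883 CPM in any library (log2 fold change 0.48, SE 1.15).

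The promoters of Plin2 and Abca1, members whose groups did not overlap, are shown with an E-box, the letters CACGTG, which transcription factors such as TFEB bind. Of the other members without overlap, Lipa had no E-box in its window and Fabp5 had no window. Binding was not tested. In Plin2 the motif begins 4 bases before the annotated start site and in Abca1 147 bases before it. The windows are chr4:86670010-86670309 and chr4:53159846-53160145 of GRCm38.p6, both on the minus strand, from RefSeq, and capitals mark the E-box.
Plin2: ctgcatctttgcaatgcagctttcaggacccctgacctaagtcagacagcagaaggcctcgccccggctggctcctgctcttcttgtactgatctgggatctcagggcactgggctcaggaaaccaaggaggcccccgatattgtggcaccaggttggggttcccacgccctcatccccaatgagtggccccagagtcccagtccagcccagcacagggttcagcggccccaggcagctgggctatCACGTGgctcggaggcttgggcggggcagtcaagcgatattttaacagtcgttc
Abca1: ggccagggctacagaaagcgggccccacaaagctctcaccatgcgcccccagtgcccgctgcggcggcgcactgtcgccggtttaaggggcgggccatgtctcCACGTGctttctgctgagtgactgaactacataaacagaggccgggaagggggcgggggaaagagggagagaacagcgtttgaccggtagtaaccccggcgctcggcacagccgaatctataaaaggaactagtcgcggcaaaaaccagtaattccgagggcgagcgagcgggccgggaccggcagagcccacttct

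RefSeq windows of this kind were found for 30 of the 36 genes, in 39 entries. CACGTG, which reads the same on both strands, stood in 4 of these 39 (those of Abca1, Lipe, Mgll and Plin2) and in 7.15% of all 32851 promoter windows. AGGTCA, the hexamer of nuclear receptors, searched on both strands, stood in 7 of the 39 entries, of Abhd5, Acadm, Acadvl, Cpt1a, Plin2 and Pparg, and in 16.3% of all windows. Direct repeats of exactly these letters 4 bases apart, the spacing of LXR sites, stood in 0 of 39 entries and 0.0152% of all windows. At 1 base apart, the PPAR spacing, the figures were 0 of 39 and 0.0396%. Exact repeats were so rare over all windows that 0 of 39 cannot tell whether these promoters hold less exact ones. Less exact repeats were not searched for. Of the E-box genes, Mgll had a log2 fold change below 0, while Abca1, Lipe and Plin2 were above 0.

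The lipases that empty droplets in the cytoplasm had no call. Of 4 genes, 2 were above 0 and 2 below, with a median log2 fold change of -0.03 (-0.14 without control 1 and 0.09 without control 2), and the 95% interval of each lay between -1 and 1. Pnpla2, which encodes ATGL, the triglyceride lipase that starts droplet breakdown, was 97.9, 136 and 128 CPM across the controls, and 104, 97.9 and 124 CPM across the knockouts. The lowest control and the lowest knockout were level. Its log2 fold change was -0.15 (SE 0.18, 95% interval -0.52 to 0.22).

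Abhd5, the activator of ATGL, was at 0.16 on the log2 fold change scale (SE 0.29), and Lipe, hormone-sensitive lipase, at 0.09 on the same scale (SE 0.19). Mgll, which cleaves monoglycerides, an endocannabinoid among them, was 62.7, 59.5 and 40.9 CPM across the controls, and 37.2, 36.1 and 50.6 CPM across the knockouts. Controls 1 and 2 lay above every knockout and control 3 did not. The means were 54.3 ± 11.8 and 41.3 ± 8.09 CPM (SD, n = 3 each), with a log2 fold change of -0.41 (SE 0.22, 95% interval -0.87 to 0.06, edgeR unadjusted p = 0.0798).

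Acsl1 was the gene with the smallest p on the lower side. It encodes a long-chain acyl-CoA synthetase, which activates fatty acids for synthesis or oxidation. It was 75.8, 59.3 and 82.5 CPM across the controls, and 62.0, 37.4 and 54.5 CPM across the knockouts. Knockout 1 lay above control 2, so the groups overlapped. The means were 72.5 ± 12.0 and 51.3 ± 12.6 CPM (SD, n = 3 each) and the log2 fold change was -0.49 (SE 0.21, 95% interval -0.94 to -0.03). The edgeR unadjusted p was 0.0374 and the adjusted p 0.999, and the log2 fold change lay between -0.66 and -0.33 with single libraries left out. It was -0.30 by limma voom (adjusted p = 0.655) and -0.22 without both shallow libraries (edgeR adjusted p = 0.902).

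Its paralog Acsl5 had the opposite sign, with 76.1 ± 5.76 CPM in controls and 86.7 ± 8.13 CPM in knockouts (SD, n = 3 each) and a log2 fold change of 0.19 (SE 0.17, 95% interval -0.16 to 0.54). Of the fatty acid receptors, Ppard stood at 13.9 ± 4.82 and 13.04 ± 1.29 CPM (SD, n = 3 each), a log2 fold change of -0.12 (SE 0.32). Pparg was at most 0.533 CPM in any library, was at 0 in control 3 and knockout 2, and was not tested.

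Most genes of fatty acid oxidation had a fold change below 0, small in size and with no call. Of 12 genes, 10 had a log2 fold change below 0 and 2 above, with a median of -0.13 and a range of -1.62 to 0.13, and 0 were called or reached an unadjusted edgeR p below 0.05. By limma voom, and without both shallow libraries, 7 were below 0 and 5 above. The median was -0.05 without knockout 2 and -0.20 without knockout 3. Their summed CPM was 754, 759 and 644 in the controls and 696, 616 and 681.5 in the knockouts, which overlapped. For 9 of the 12 the 95% interval lay between -1 and 1.

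**Figure D5:**
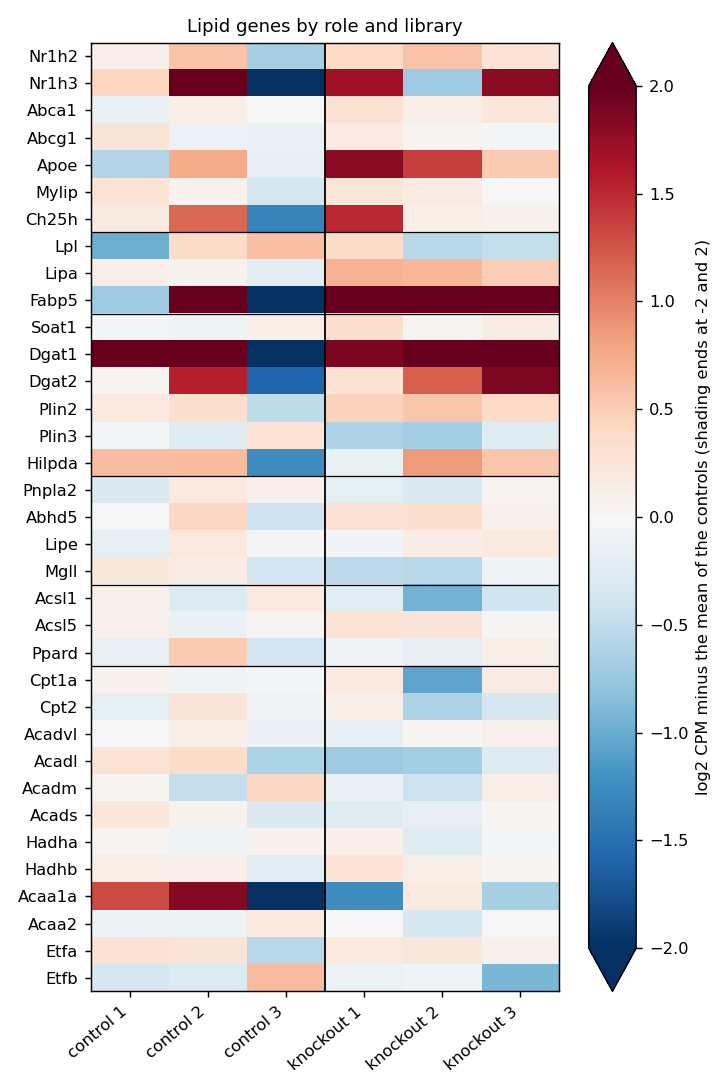
Log2 CPM of the 35 tested lipid genes in each library minus the mean of the 3 controls (red higher, blue lower; shading ends at -2 and 2), with horizontal lines between the roles in the order LXR and efflux, lipases and uptake, droplets, lipolysis, acyl-CoA synthesis and PPAR, oxidation. Lipa is red in all 3 knockouts, the oxidation block is mostly pale apart from Acaa1a, and control 3 holds the deepest blue cells, among them Dgat1 and Fabp5 at 0 reads.

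Entry of fatty acids into mitochondria was represented by the transcripts of 2 genes, and entry itself was not measured. Cpt1a, the rate-limiting carnitine acyltransferase of the outer membrane, was 30.0, 27.6 and 28.3 CPM across the controls, and 32.5, 13.8 and 32.2 CPM across the knockouts. Knockouts 1 and 3 lay above every control and knockout 2, a shallow library, under every control. The log2 fold change was -0.11 (SE 0.29, 95% interval -0.73 to 0.50), and 0.16 without knockout 2. Cpt2, the inner-membrane enzyme, was 57.0 ± 9.59 and 47.6 ± 12.7 CPM (SD, n = 3 each), a log2 fold change of -0.26 (SE 0.22).

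The acyl-CoA dehydrogenases, which open each cycle on chains of decreasing length, lay near 0 but for Acadl. Acadvl, for very long chains, was 60.8, 67.5 and 55.8 CPM across the controls, and 54.4, 62.3 and 64.8 CPM across the knockouts. The groups overlapped throughout, with means of 61.4 ± 5.88 and 60.5 ± 5.403 CPM (SD, n = 3 each) and a log2 fold change of -0.03 (SE 0.18, 95% interval -0.40 to 0.35). Acadvl shares 42.9% of its exonic bases with other genes, and the labels do not say whether reads were counted by strand. Medium-chain Acadm had a log2 change of -0.15 (SE 0.23) and short-chain Acads one of -0.14 (SE 0.18).

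Acadl, for long chains, was 22.3, 23.5 and 11.8 CPM across the controls, and 11.04, 11.4 and 15.3 CPM across the knockouts; these values are given because its p was next to the threshold, a choice made after they were seen. The deep controls 1 and 2 lay above every knockout, and the shallow control 3, at 15 reads, lay among the knockouts. The log2 fold change was -0.65 (SE 0.31, 95% interval -1.31 to 0.01, edgeR unadjusted p = 0.0526, adjusted p = 0.999), and it was -0.86 to -0.48 with single libraries left out.

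The trifunctional protein, which carries out the later steps on long chains, is built from the products of Hadha and Hadhb. Hadha was 128, 118 and 131 CPM across the controls, and 134, 105 and 122 CPM across the knockouts, with controls inside the range of the knockouts. Its log2 fold change was -0.06 (SE 0.16, 95% interval -0.40 to 0.28). Hadhb was 152, 150.5 and 120.2 CPM across the controls, and 169, 151 and 144 CPM across the knockouts, and its log2 fold change was 0.13 (SE 0.16, 95% interval -0.21 to 0.48). The 95% intervals leave out a change of 1 in either direction on the log2 scale for both subunits. Reads of Hadhb could be shared with its pseudogene Hadhb-ps, which stood at 2.88 to 8.73 CPM.

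The pair lies head to head, and the shared promoter is shown because the windows of both genes overlap in it. The RefSeq start sites are 273 bases apart on opposite strands, and 228 of the 300 bases of the Hadhb window (chr5:30155003-30155302, GRCm38.p6, plus strand) also lie in that of Hadha. Capitals mark the shared bases.
Hadhb: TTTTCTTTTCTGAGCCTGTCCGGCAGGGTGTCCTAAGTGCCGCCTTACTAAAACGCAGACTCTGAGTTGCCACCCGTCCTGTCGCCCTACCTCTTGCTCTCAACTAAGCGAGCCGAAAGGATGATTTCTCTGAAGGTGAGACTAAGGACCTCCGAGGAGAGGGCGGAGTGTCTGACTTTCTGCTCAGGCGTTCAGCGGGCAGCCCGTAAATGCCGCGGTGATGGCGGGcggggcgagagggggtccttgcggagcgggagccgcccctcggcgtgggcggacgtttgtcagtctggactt

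Acaa1a was the exception in size among oxidation genes. It encodes the peroxisomal thiolase, and its values were singled out after they were seen. It stood at 54.1, 77.8 and 2.36 CPM in controls 1 to 3 (2056, 2895 and 3 reads) and at 9.09, 24.7 and 13.6 CPM for knockouts 1 to 3 (307, 95 and 293 reads). The deep controls 1 and 2 lay above every knockout, and the shallow control 3 lay under all. With all libraries the log2 fold change was -1.62 (SE 1.09, 95% interval -4.58 to 1.34, edgeR adjusted p = 0.999). Without control 3 it was -2.14 (SE 0.38, edgeR adjusted p = 0.120), and without both shallow libraries, with 2 mice a group, -2.55 (SE 0.27, edgeR adjusted p = 0.0113). It was the 1 lipid gene called in that fit, in which 0.232% of all genes were called. Limma voom on all libraries gave -2.29 (adjusted p = 0.165).

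Acaa1a lies 551 kb from Cx3cr1 on chromosome 9 in GENCODE M21, the locus that carries the Cre allele in the knockouts, and Abhd5 lies 2282 kb from it. Sequence that travels with the Cre allele and the loss of Atg7 cannot be told apart here. The neighbouring genes Myd88 and Xylb overlapped between the groups, at 82.5 to 89.7 and 69.6 to 103 CPM for Myd88 and at 8.91 to 15.7 and 6.32 to 12.6 CPM for Xylb in controls and knockouts. The paralog Acaa1b, to which similar reads might be assigned, was at most 1.56 CPM in any library.

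The last steps again lay within the spread. Acaa2, the mitochondrial thiolase, had a log2 fold change of -0.09 (SE 0.21). Etfa and Etfb encode the subunits of the flavoprotein that passes electrons from the dehydrogenases to the respiratory chain. Their log2 changes were 0.09 (SE 0.22) and -0.33 (SE 0.44), and Etfb shares 58.2% of its exonic bases with other genes.

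A wider set of 82 genes of the same pathways had no call either. Of 70 tested, 35 were above 0, the median log2 fold change was 0.00 (-0.09 for storage and efflux, 0.06 for oxidation), and 0 were called by edgeR or DESeq2. At an unadjusted edgeR p below 0.05 stood 2, both higher, which is 2.86% of the wider set against 4.32% of all genes. Vps13c, a lipid transfer protein of organelle contacts, was 11.5, 17.7 and 18.9 CPM across the controls, and 24.3, 30.9 and 26.2 CPM across the knockouts. These did not overlap, and the log2 fold change was 0.79 (SE 0.26, edgeR unadjusted p = 0.00868, adjusted p = 0.84).

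Ppara, the fatty acid receptor that drives oxidation genes in liver, was 0.0526, 0.0807 and 0.786 CPM across the controls, and 0.414, 1.56 and 1.35 CPM across the knockouts, so it was low in every library and the groups overlapped (log2 fold change 3.27, SE 1.38, edgeR unadjusted p = 0.0317, adjusted p = 0.999). Groups did not overlap for 6 genes higher and 3 lower, 12.9% of those tested, against 11.1% of all genes (6.59% higher and 4.47% lower). The oxidation genes of the wider set had 24 of 39 members above 0, against 2 of 12 in the list described above.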

How the data were processed

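The authors deposited a table of raw read counts per gene for 6 libraries; the submitters' processing notes name build GRCm39 and the tools STAR, Salmon, bcl2fastq, featureCounts and Subread, without their roles or a strand setting. Libraries were made from 10 ng of RNA with a SMARTer Ultra Low kit, per the labels' protocols. Of 55774 rows, 287 repeated an identifier and were left out, 0 named no gene, and 0 columns belonged to other samples. Counts of all genes passing edgeR's filterByExpr (15787) were fitted with edgeR 4.0.16 (TMM scaling, robust quasi-likelihood test, R 4.3.3), 3 knockouts against 3 controls, and p-values were adjusted over all of them at a threshold of 0.05. The procedure was tested on simulated data, with 100 genes changed by 1 and 100 by 2 on the log2 scale. These were drawn from genes at a mean of at least 5 CPM. At the threshold it called 10% of the first and 76% of the second, and 18 of 104 calls were false. The lack of a call therefore does not show that a gene is unchanged. Alternatives used DESeq2 1.42.0, limma 3.58.1, other scalings and filters, a replicate block, and libraries left out. The members and lists were chosen with earlier results of these data known. Values in every library are given for members at an unadjusted p under 0.05, for those without overlap at a mean of at least 5 CPM, and for 9 genes whatever their p (Apoe, Abca1, Lpl, Plin2, Pnpla2, Soat1, Cpt1a, Hadha and Acadvl); others were chosen after their values were seen. Exon lengths and overlaps come from GENCODE M21, an annotation of the preceding assembly that holds 99.5% of the identifiers, and promoters from RefSeq (GRCm38.p6).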

Additional observations from a re-analysis of the deposited data

How the results depend on the processing

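Over 16 alternatives, 508 of 558 log2 fold changes of lipid genes kept their direction and their side of the threshold, 48 changed sign, and 2 gained a call: Lipa by DESeq2 (1 member called higher) and Acaa1a without both shallow libraries (1 called lower). A sign never changed in 17 genes, and no gene with a change of sign was larger than 0.48 in the main result. Scalings moved the median of all genes by at most 0.06. The cause of the changes below was not tested.

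Calls over all genes varied more, from 5 higher and 2 lower. They were 49 and 34 by DESeq2, 1 and 1 without the robust option, 60 and 42 without a filter, 9 and 6 by limma voom, 2 higher with library weights, 9 and 30 without both shallow libraries, and 1 to 15 and 1 to 35 with single libraries left out. The median of the lipid genes was 0.05, with a range of -0.10 (without knockout 3) to 0.14.

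Replicate numbers are not stated to pair mice, and the deviations of same-numbered libraries correlated at 0.30, -0.22 and -0.06 across genes. With the replicate block, 16 genes were called higher and 9 lower, 0 lipid genes among them, and Dgat1 was 0.23.

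Other log2 fold changes of the opposite sign were, without both shallow libraries, Nr1h2 -0.02, Abcg1 -0.02, Mylip -0.06, Lpl 0.15, Hilpda -0.39, Abhd5 -0.03, Cpt1a 0.16, Acadm 0.19, Hadha 0.06, Acaa2 0.09 and Etfa -0.15. By limma voom they were Lpl 0.13, Hilpda -0.34, Cpt1a 0.04, Acadm 0.10, Hadha 0.01, Acaa2 0.04 and Etfa -0.08, and with library weights Lpl 0.18, Hilpda -0.30, Acadm 0.01, Acaa2 0.02 and Etfa -0.07. DESeq2 gave Dgat1 0.01 and library totals gave Acadvl 0.03. With single libraries left out, the ranges that crossed 0 were Nr1h3 -0.26 to 1.44, Abcg1 -0.03 to 0.21, Mylip -0.05 to 0.26, Ch25h -0.34 to 1.0, Dgat1 -0.58 to 0.31, Dgat2 -0.14 to 1.79, Hilpda -0.19 to 0.38, Lipe -0.01 to 0.22, Ppard -0.27 to 0.22, Cpt1a -0.31 to 0.16, Acadvl -0.10 to 0.05, Acadm -0.35 to 0.06, Hadha -0.16 to 0.01 and Etfa -0.12 to 0.22. At 1254380 reads, control 3 limits every gene under its 3-read floor of 2.36 CPM.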
